A study of Mus musculus with 8 samples.

Results

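The elastic fibre and microfibril genes are a set of 10 mouse genes chosen by symbol for their place in the fibre, with no threshold on a measured value: *Eln*, *Fbn1*, *Fbn2*, *Fbln1*, *Fbln5*, *Efemp1*, *Efemp2*, *Mfap2*, *Mfap4* and *Mfap5*. The choice was made with earlier results of these data known. Each symbol matched a single row among the 50600 genes of the count table. RNA was sequenced from 2 lines of malignant peripheral nerve sheath tumor (MPNST) cells, a sarcoma of the Schwann cell lineage. The NF1-MET line came from a *Met*-amplified MPNST of a mouse carrying *Nf1* fl/ko, a lox-stop-lox MET transgene (tg/+) and *Plp*-creERT tg/+, in which tamoxifen-inducible Cre is driven by a promoter of myelinating glia. Its *Cdkn2a* locus was spontaneously deleted, and its *Trp53* was intact. The NF1-MET;sgP53 line was made from it with a lentiviral CRISPR guide against *Trp53* and carries the same engineered alleles. Both lines were given DMSO as vehicle or capmatinib, an inhibitor of the MET kinase, at 100 nM for 24 h in medium with serum, with 2 libraries for each of the 4 groups.

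Each genotype was 1 line, so the loss of p53 cannot be told apart from other differences between the lines. The columns of the NF1-MET libraries carry the letters EV, which could mean an empty vector. An empty-vector derivative of this line is described by the study, and whether the sequenced NF1-MET cells were that derivative is not stated. The labels call the libraries biological replicates and the protocol describes duplicate wells, so p-values rest on the spread between wells, not between independent lines. Each comparison of 2 groups leaves 2 residual degrees of freedom. The test therefore estimates the spread of a gene partly from all other genes, and small p-values depend on that.

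Elastic fibres are built on microfibrils, bundles whose backbone is fibrillin-1 (*Fbn1*) or fibrillin-2 (*Fbn2*). Microfibrils bind small glycoproteins (*Mfap2*, *Mfap5*) and latent TGF-beta complexes, and they exist with or without elastin (*Eln*), the rubber-like core protein. Fibulins guide elastin onto the scaffold: fibulin-4 (*Efemp2*) and fibulin-5 (*Fbln5*) bring elastin together with the lysyl oxidases that crosslink it, fibulin-3 (*Efemp1*) is a related glycoprotein of connective tissue, and fibulin-1 (*Fbln1*) lies within elastic fibres and basement membranes. In peripheral nerve such fibres lie mainly in the connective tissue sheaths.

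*Trp53* was measured before the members, as a check of the labels. Levels are in CPM, the usual scaling of counts by library size, here with TMM factors. It had 182 and 193 CPM in NF1-MET vehicle libraries and 97.5 and 100.02 CPM in NF1-MET;sgP53 vehicle libraries. With capmatinib it had 126 and 128 CPM in NF1-MET and 68.0 and 68.8 CPM in NF1-MET;sgP53. The NF1-MET;sgP53 libraries were lower in both treatments, with log2 fold changes of -0.94 ± 0.033 (SE) in vehicle and -0.89 ± 0.029 in capmatinib (adjusted p = 2.48e-14 and 4.78e-13, edgeR quasi-likelihood test). A count over the whole gene does not show the edit itself. Total counts lay between 30116810 and 42781371 per library. A single gene, *Gm42418*, took between 1.11% and 13.1% of them and differed between replicates of a group.

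Positions are from GENCODE M21 on mm10. *Fbn1* lies at chr2:125300594-125507993 on the minus strand, *Fbln5* at chr12:101746565-101819055 on the minus strand, and *Mfap5* at chr6:122505845-122529290 on the plus strand. *Mfap2* lies at chr4:141010418-141015984, *Efemp1* at chr11:28853204-28926743 and *Efemp2* at chr19:5473954-5482517, all on the plus strand. Counts are over exons of the gene. Exons of *Fbn1* share 2442 bases with *Gm9913* on the other strand, which had at most 58 counts in a library. *Efemp2* shares 173 bases with *Mus81* on the other strand, and the strand setting of the counting is not given in the sources used here.

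RefSeq promoter windows on GRCm38.p6 matched 6 of the 10 members. Of these, 3 are shown: that of *Fbln5*, which had the largest rise with capmatinib among the matched genes, and those of *Mfap2* and *Efemp1*, which held a motif match. Where RefSeq gives several windows for a gene, only the one nearest a GENCODE start was read. They end just before the RefSeq start of transcription and leave out bases inside GENCODE exons, so that no annotated exon is included. The *Fbln5* window is chr12:101818485-101818733 on the minus strand and lies in an intron of longer *Fbln5* transcripts. The *Mfap2* window is chr4:141010174-141010417 and the *Efemp1* window is chr11:28852955-28853203, both on the plus strand and upstream of the gene. Capitals mark matches to the motifs searched on both strands, which were the TEAD motif (GGAATG), the AP-1 motif (TGANTCA), the TATA motif (TATAAA) and the CArG box.
Fbln5: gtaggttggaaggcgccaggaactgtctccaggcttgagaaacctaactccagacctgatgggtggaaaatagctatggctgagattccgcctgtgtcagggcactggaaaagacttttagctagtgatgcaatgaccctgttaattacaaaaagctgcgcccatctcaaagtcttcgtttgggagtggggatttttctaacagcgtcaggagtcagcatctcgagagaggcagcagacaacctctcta
Mfap2: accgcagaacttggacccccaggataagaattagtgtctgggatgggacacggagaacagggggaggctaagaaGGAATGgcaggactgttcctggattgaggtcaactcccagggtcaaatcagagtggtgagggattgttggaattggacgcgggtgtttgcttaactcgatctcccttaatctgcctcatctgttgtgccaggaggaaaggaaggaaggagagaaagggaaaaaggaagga
Efemp1: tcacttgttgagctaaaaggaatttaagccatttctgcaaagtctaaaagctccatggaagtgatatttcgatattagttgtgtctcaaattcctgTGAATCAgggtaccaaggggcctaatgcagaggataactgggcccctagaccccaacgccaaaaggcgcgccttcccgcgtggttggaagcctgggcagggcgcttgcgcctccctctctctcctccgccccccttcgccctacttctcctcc
The *Mfap2* window held a TEAD match whose 5′ base in the printed strand lies 176 bases before the start, and the *Efemp1* window an AP-1 match 154 bases before it. The *Fbln5* window held none of the 4 motifs, and neither did the windows read for *Fbln1* and *Efemp2*. Among 32851 promoter windows of 250 bases, 12.6% held the TEAD motif, 6.75% the AP-1 motif, 12.4% the TATA motif and 1.47% the CArG box. The matches do not overlap each other and are descriptions of letters only.

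Elastin itself was close to absent. *Eln* had 0 counts in all 4 NF1-MET libraries, 0 and 1 in NF1-MET;sgP53 vehicle, and 0 and 3 in NF1-MET;sgP53 capmatinib. A count of 0 allows up to 3 counts, which is 0.0702 to 0.108 CPM over the libraries (counting error only), so no fold is given. *Mfap4*, whose product binds elastin and collagen, had 0 counts in all 4 vehicle libraries, 1 and 0 in NF1-MET capmatinib, and 5 and 4 in NF1-MET;sgP53 capmatinib. Both fell below the filter of 10 counts in at least 2 libraries and were not tested. Without that filter *Mfap4* was called higher with capmatinib in NF1-MET;sgP53 (adjusted p = 0.023, edgeR quasi-likelihood test), on the few counts given here, and was not called in NF1-MET (adjusted p = 0.639). The other 8 members passed with at least 20 counts in every library.

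Per kilobase of exon, *Efemp1* had the highest level in every group, at 96.2 ± 0.361 CPM per kb (SD, n = 2) in NF1-MET vehicle. It was followed there by *Efemp2* at 27.6, *Fbn1* at 19.8, *Fbln5* at 18.5 and *Fbn2* at 11.2 CPM per kb. *Mfap2* at 1.54, *Mfap5* at 0.221 and *Fbln1* at 0.168 CPM per kb were at the low end. The replicate ranges of neighbours in this order did not overlap, apart from the pair *Eln* and *Mfap4*. The order was the same in NF1-MET;sgP53 vehicle, again with no overlap outside that pair. It depends on the lengths used, which pool all annotated exons of a gene (2037 bases for *Efemp1* and 12128 for *Fbn1*). By CPM alone *Fbn1* was above *Efemp1* in every group, with means of 240 and 196 CPM in NF1-MET vehicle.

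With capmatinib the order changed in the same way in both lines: *Fbln5* and *Fbn1* moved above *Efemp2*, and *Mfap5* moved above *Mfap2*. In NF1-MET capmatinib, *Efemp1* stood at 155 CPM per kb, *Fbln5* at 118, *Fbn1* at 82.8 and *Efemp2* at 53.4, again with no overlap of replicates. The summed level of the 10 members was 176 and 174.5 CPM per kb in NF1-MET vehicle and 430.5 and 433 with capmatinib. For NF1-MET;sgP53 the sum was 220 and 218 CPM per kb in vehicle and 441.5 and 433 with capmatinib. *Efemp1* made up 54.9% of that sum in NF1-MET vehicle and 35.9% with capmatinib, while *Fbln5* went from 10.6% to 27.4%. These shares depend on the same exon lengths, are descriptions and were not tested.

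**Figure D1:**
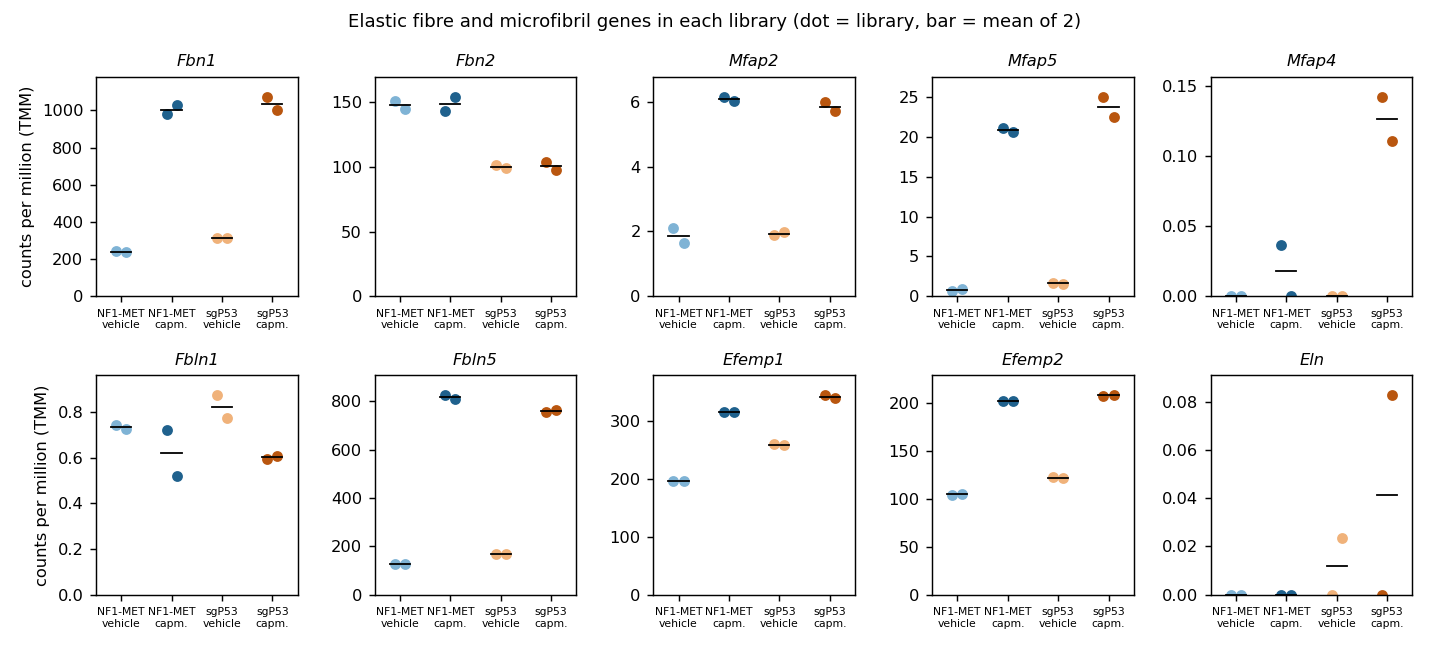
TMM-scaled CPM of the 10 members in each of the 8 libraries (a linear axis from 0 for each gene, dots for libraries, bars for the mean of 2, sgP53 standing for NF1-MET;sgP53). *Fbn1*, *Mfap2*, *Mfap5*, *Fbln5*, *Efemp1* and *Efemp2* were higher in both capmatinib groups than in both vehicle groups, *Fbn2* differed by line, and *Eln* and *Mfap4* had at most 5 counts in any library.

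Capmatinib was compared with vehicle within each line. In both lines 6 of the 8 tested members rose and none fell, and the same 6 genes rose in each. No member was lower at an unadjusted p under 0.05 in edgeR's quasi-likelihood test, and DESeq2 called 0 lower. In NF1-MET, 35.5% of the 14496 genes tested were called higher and 34.7% lower, and in NF1-MET;sgP53 34.2% of 14497 were called higher and 33.4% lower. The 8 members had a median log2 fold change of 1.31 in the NF1-MET line and of 1.18 in NF1-MET;sgP53, beside 0.0020 and 0.0049 over all genes tested. The 6 rises were called in all 13 alternative analyses of each line.

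The fibrillins parted. *Fbn1* had 242 and 238 CPM in NF1-MET vehicle and 980.3 and 1028 CPM with capmatinib. The NF1-MET;sgP53 libraries had 313 and 311 CPM in vehicle and 1072 and 1001 CPM with capmatinib. The vehicle and capmatinib libraries were far apart in both lines, and the log2 fold changes were 2.05 ± 0.024 (SE; adjusted p = 2.69e-35) in NF1-MET and 1.73 ± 0.030 (adjusted p = 3.27e-22) in NF1-MET;sgP53, or 4.14-fold and 3.32-fold.

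*Fbn2*, the fibrillin known best from developing tissue, had 151 and 145 CPM in NF1-MET vehicle and 143 and 154 CPM with capmatinib. The values for NF1-MET;sgP53 were 102 and 99.2 CPM in vehicle and 104 and 98.0 CPM with capmatinib. The treatment groups overlapped in both lines, with log2 fold changes of -0.01 (95% interval -0.07 to 0.06, adjusted p = 0.848) and 0.01 (-0.07 to 0.08, adjusted p = 0.881). Library totals in place of TMM factors gave *Fbn2* a log2 fold change of -0.19 in NF1-MET (adjusted p = 0.00136), beside a median of -0.18 over all genes under that scaling.

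The ratio of *Fbn1* to *Fbn2* in a library, per kilobase of exon, does not depend on the scaling between libraries. It was 1.74 and 1.79 in NF1-MET vehicle and 7.46 and 7.27 with capmatinib. The sgP53 line had ratios of 3.36 and 3.42 in vehicle and 11.3 and 11.1 with capmatinib. All 4 groups were separate, with 2 libraries each, where an exact permutation test within a line cannot give a p below 0.333. The ratio shows unequal change of the fibrillin transcripts, not which of them changed.

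**Figure D2:**
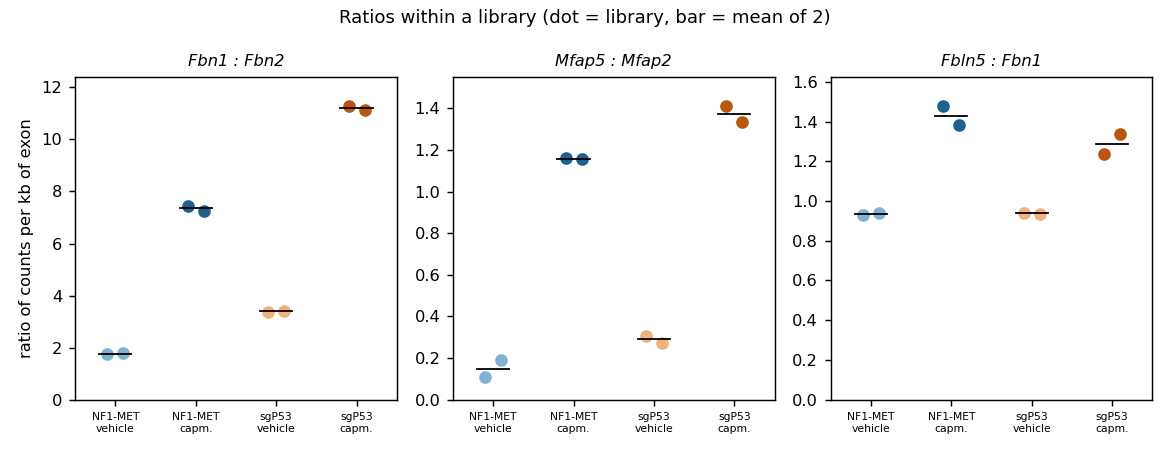
Ratios of counts per kilobase of exon between pairs of members within each library, on linear axes from 0, with dots for libraries and bars for the mean of 2. *Fbn1* to *Fbn2* runs from 1.74 in an NF1-MET vehicle library to 11.3 in an NF1-MET;sgP53 capmatinib library, and *Mfap5* to *Mfap2* is below 0.31 in all 4 vehicle libraries and above 1.15 in all 4 capmatinib libraries.

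The microfibril-associated glycoproteins both rose from low levels. *Mfap5* (MAGP-2) had 24 and 37 counts in NF1-MET vehicle, or 0.661 and 0.927 CPM, and 21.1 and 20.6 CPM with capmatinib. Levels in NF1-MET;sgP53 were 1.72 and 1.59 CPM in vehicle and 25.0 and 22.5 CPM with capmatinib. Its log2 fold changes, 4.68 ± 0.13 (adjusted p = 5.72e-25) and 3.85 ± 0.11 (adjusted p = 1.77e-18), were larger in size than those of the other 7 members that passed the filter, in each line. *Mfap2* (MAGP-1) had 2.09 and 1.63 CPM in NF1-MET vehicle and 6.14 and 6.01 CPM with capmatinib, with 1.89 and 1.97 against 5.98 and 5.70 CPM in NF1-MET;sgP53. Its log2 fold changes were 1.69 ± 0.15 (adjusted p = 1.2e-11) and 1.60 ± 0.14 (adjusted p = 1.34e-09).

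The ratio of *Mfap5* to *Mfap2* per kilobase was 0.107 and 0.192 in NF1-MET vehicle and 1.16 in both NF1-MET capmatinib libraries. The sgP53 line had 0.306 and 0.273 in vehicle and 1.41 and 1.33 with capmatinib. By this measure, which depends on the exon lengths used, *Mfap5* was the lower of the pair in every vehicle library and the higher in every capmatinib library. Counts without length gave the same order. In NF1-MET;sgP53 vehicle they were close, with 59 and 68 for *Mfap5* and 65 and 84 for *Mfap2*.

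Of the fibulins, 3 rose and 1 was not called. *Fbln5* had 128.1 and 127.5 CPM in NF1-MET vehicle and 824 and 809 CPM with capmatinib. The NF1-MET;sgP53 line had 168 and 166 CPM in vehicle and 756 and 762 CPM with capmatinib. The log2 fold changes were 2.66 ± 0.024 (6.32-fold, adjusted p = 2.94e-38) and 2.19 ± 0.028 (4.55-fold, adjusted p = 1.77e-24).

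*Efemp2* had 104 and 105 CPM in NF1-MET vehicle and 202 CPM in both capmatinib libraries, against 122 in both vehicle libraries and 208 in both capmatinib libraries of NF1-MET;sgP53. Its log2 fold changes were 0.93 ± 0.028 (adjusted p = 5.37e-24) and 0.77 ± 0.031 (adjusted p = 1.69e-15). *Efemp1* had 197 and 196 CPM in NF1-MET vehicle and 316 CPM in both capmatinib libraries, and 259.5 and 258 against 344 and 340.02 CPM in NF1-MET;sgP53. Its log2 fold changes, 0.67 ± 0.024 (adjusted p = 5.52e-22) and 0.40 ± 0.029 (adjusted p = 3.91e-11), were the smallest among the 6 that rose.

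*Fbln1* had only 20 to 33 counts in any library. It stood at 0.744 and 0.727 CPM in NF1-MET vehicle and 0.723 and 0.520 CPM with capmatinib, and at 0.872 and 0.772 against 0.596 and 0.606 CPM in NF1-MET;sgP53. The log2 fold changes were -0.29 (95% interval -0.99 to 0.41, adjusted p = 0.464) and -0.44 (-1.14 to 0.25, adjusted p = 0.252). At this depth a change of up to about the size of that of *Efemp2*, in the falling direction, lies within both intervals.

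**Figure D3:**
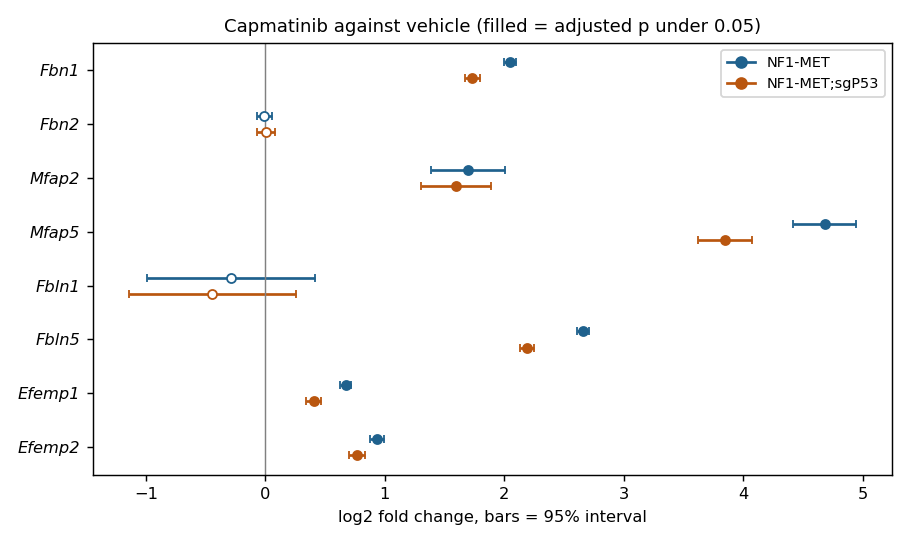
Log2 fold change of capmatinib against vehicle for the 8 tested members in NF1-MET (blue) and NF1-MET;sgP53 (orange), with bars for the 95% interval and filled dots for an adjusted p under 0.05. *Mfap5* lies farthest to the right in both lines, at 4.68 and 3.85, and *Fbn2* and *Fbln1* have intervals that include 0.

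The lines were then compared in vehicle, to ask what differed with *Trp53* editing before treatment. In NF1-MET;sgP53, 5 of the 8 tested members were higher, *Fbn2* was lower, and *Mfap2* and *Fbln1* were not called. Of 14484 genes tested, 10.9% were called higher and 12.3% lower. The members' median log2 fold change was 0.28, beside 0.0024 over all genes.

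*Fbn1*, *Fbln5* and *Efemp1* were higher by similar amounts, with log2 fold changes of 0.36 ± 0.026 (adjusted p = 1.58e-09), 0.37 ± 0.028 (adjusted p = 5.66e-09) and 0.38 ± 0.026 (adjusted p = 8.93e-10). *Efemp2* was higher by 0.20 ± 0.030 (adjusted p = 3.6e-05). The replicate values of these 4 genes, given above, did not overlap between the lines. *Mfap5* was higher by 1.02 ± 0.26 (adjusted p = 0.00639), from 24 and 37 counts to 59 and 68 counts. Without NF1-MET vehicle replicate 1 the *Mfap5* difference was 0.81 (adjusted p = 0.0805), and DESeq2 gave 1.03 (adjusted p = 0.0605).

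*Fbn2* was the only member lower in NF1-MET;sgP53 vehicle, by a log2 fold change of -0.58 ± 0.032 (adjusted p = 3.3e-11), or 0.669-fold. *Mfap2* had a log2 fold change of 0.04 (95% interval -0.38 to 0.46, adjusted p = 0.920) and *Fbln1* of 0.14 (-0.50 to 0.77, adjusted p = 0.808). For both the interval allows a change as large as that of *Fbn1*.

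Under capmatinib fewer genes were called between the lines than in vehicle, in a fit with a larger biological coefficient of variation (3.83% against 3.10%). Of 14481 genes tested, 5.94% were called higher in NF1-MET;sgP53 and 6.34% lower, and among the members *Efemp1* was higher and *Fbn2* and *Fbln5* were lower. *Fbn2* kept a difference of -0.56 ± 0.038 (adjusted p = 1.47e-08). *Efemp1* was higher by 0.12 ± 0.027 (adjusted p = 0.00687) and *Fbln5* was lower by a log2 fold change of -0.11 ± 0.022 (adjusted p = 0.00347). With library totals *Fbln5* stood at 0.01 (adjusted p = 0.961) and *Efemp1* at 0.23 (adjusted p = 0.193), where the median of all genes moved by 0.114.

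*Fbn1* had a log2 fold change of 0.05 between the lines under capmatinib (95% interval -0.01 to 0.11, adjusted p = 0.356) and *Efemp2* of 0.04 (-0.02 to 0.10, adjusted p = 0.411). Without NF1-MET;sgP53 capmatinib replicate 2, *Fbn1* was called higher at 0.09 (adjusted p = 0.00511) and *Mfap5* at 0.26 (adjusted p = 0.00688). With all libraries *Mfap5* stood at 0.19 ± 0.063 (adjusted p = 0.0584), and it passed the threshold without a low-count filter (adjusted p = 0.0465). The members' median was 0.01, beside -0.0010 over all genes.

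**Figure D4:**
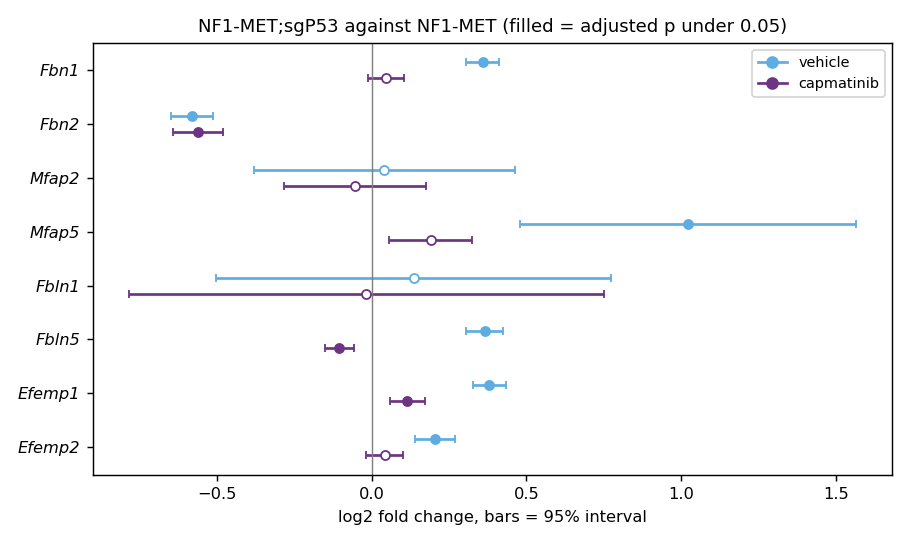
Log2 fold change of NF1-MET;sgP53 against NF1-MET for the 8 tested members in vehicle (light blue) and in capmatinib (purple), with bars for the 95% interval and filled dots for an adjusted p under 0.05. *Fbn2* is lower by a similar amount in both treatments, at -0.58 and -0.56, while *Fbn1*, *Mfap5*, *Fbln5*, *Efemp1* and *Efemp2* lie farther to the right in vehicle.

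The interaction of line and treatment, fitted over all 8 libraries, tests whether the capmatinib response differed between the lines. It was called below 0 for 5 of the 8 tested members, each with a smaller rise in NF1-MET;sgP53, and above 0 for none. No member lay above 0 at an unadjusted p under 0.05 either, and DESeq2 called 0. Over 14497 genes, 3.85% were called with a higher and 5.86% with a lower interaction. These calls come from the same libraries as the comparisons above. The direction split of all genes depended on the scaling: 39.7% of the interaction calls were above 0 with TMM factors and 58.8% when *Gm42418* was removed.

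The interaction was -0.49 ± 0.035 (SE) for *Fbln5* (adjusted p = 3.3e-10), -0.33 ± 0.041 for *Fbn1* (adjusted p = 3.42e-06) and -0.29 ± 0.035 for *Efemp1* (adjusted p = 4.13e-06). *Efemp2* had -0.18 ± 0.041 (adjusted p = 0.00382). In *Fbn1*, *Efemp1* and *Efemp2* the smaller rise went with a higher vehicle level in NF1-MET;sgP53, and in *Fbln5* also, with TMM factors, with a lower capmatinib level. With library totals as the scaling the *Fbln5* call held, and *Fbn1* (-0.26, adjusted p = 0.310), *Efemp1* (-0.21, adjusted p = 0.493) and *Efemp2* (-0.10, adjusted p = 0.845) were not called.

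*Mfap5* had the interaction of largest size among the 8 tested members and the widest error of those called, -0.85 ± 0.23 (adjusted p = 0.0168). It was -0.64 without NF1-MET vehicle replicate 1 (adjusted p = 0.163) and -0.80 without NF1-MET;sgP53 vehicle replicate 1 (adjusted p = 0.0731), and -0.78 with library totals (adjusted p = 0.0833). *Fbn2* had an interaction of -0.0008 (95% interval -0.11 to 0.11, adjusted p = 0.996). *Mfap2* stood at -0.12 (-0.57 to 0.33, adjusted p = 0.819) and *Fbln1* at -0.17 (-1.15 to 0.80, adjusted p = 0.881). The sign of these values is not settled: *Fbn2* was at 0.077 with library totals and at 0.035 without *Gm42418*, *Mfap2* at 0.061 without NF1-MET vehicle replicate 2, and *Fbln1* at 0.051 without NF1-MET capmatinib replicate 1.

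A list of 51 partner genes, chosen by role around the elastic fibre with earlier results of these data known, was then examined. Of these, 42 were tested. With capmatinib 34 rose and 5 fell in NF1-MET, and 35 rose and 4 fell in NF1-MET;sgP53, read against the shares of all genes given above. Over the partners the median log2 fold change was 0.76 in the NF1-MET line and 0.73 in the NF1-MET;sgP53 line. *Emilin3*, *Mmrn1*, *Adamtsl2*, *Mmp12* and *Elane* had 0 counts in every library.

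All 5 crosslinking enzymes of the lysyl oxidase family rose in both lines. *Lox* itself had 80.4 and 80.8 CPM in NF1-MET vehicle and 1390 and 1374 CPM with capmatinib, and 136 and 139 against 1496 and 1462 CPM in NF1-MET;sgP53. Its log2 fold changes were 4.08 ± 0.024 (adjusted p = 3.95e-43) and 3.43 ± 0.027 (adjusted p = 9.21e-28). All 5 enzymes were also higher in NF1-MET;sgP53 than in NF1-MET in vehicle and in capmatinib, beside 10.9% and 5.94% of all genes tested. The interaction was called below 0 for 4 of the 5, beside 5.86% of all genes, and was not called for *Loxl2* (-0.25 ± 0.11, adjusted p = 0.164). The interaction of *Lox* was -0.67 ± 0.033 (adjusted p = 2.8e-13).

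Among TGF-beta ligands, which microfibrils hold in latent form, *Tgfb2* and *Tgfb3* rose and *Tgfb1* fell in both lines. *Tgfb2* had 3.22 and 3.13 CPM in NF1-MET vehicle and 44.5 and 39.7 CPM with capmatinib, and 3.40 and 4.21 against 43.9 and 45.6 CPM in NF1-MET;sgP53. In NF1-MET;sgP53 its log2 fold change was 3.54 ± 0.079 (adjusted p = 3.02e-20). *Tgfb1* went from 96.1 and 95.3 to 50.3 and 50.4 CPM in NF1-MET, a log2 fold change of -0.94 ± 0.035 (adjusted p = 1.33e-21), and by -0.54 ± 0.047 in NF1-MET;sgP53 (adjusted p = 7.3e-10).

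*Tgfb1* and *Tgfb3* had interactions above 0, of 0.38 ± 0.059 (adjusted p = 7.33e-05) and 0.28 ± 0.047 (adjusted p = 0.000222). For *Tgfb1* this is a smaller fall in NF1-MET;sgP53 and for *Tgfb3* a larger rise. Of the 4 genes of the latent TGF-beta binding protein family, most of which hold latent TGF-beta in the matrix, 3 rose in the NF1-MET line and 4 in NF1-MET;sgP53. *Ltbp2* had an interaction of -0.37 ± 0.035 (adjusted p = 8.07e-08). With library totals the interactions of *Tgfb3* (0.36, adjusted p = 0.0522) and *Ltbp2* (-0.29, adjusted p = 0.197) were not called.

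Of the integrin subunits that bind matrix ligands such as fibrillin or TGF-beta complexes, 6 of 7 tested rose in each line. *Itga8* had 16.8 and 16.5 CPM in NF1-MET vehicle and 293 and 285 CPM with capmatinib, and 9.74 and 9.66 against 229 and 213 CPM in NF1-MET;sgP53. Its log2 fold changes were 4.10 ± 0.036 (adjusted p = 1.54e-38) and 4.51 ± 0.048 (adjusted p = 6.21e-26), with an interaction of 0.39 ± 0.064 (adjusted p = 0.000166).

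Among other fibulins and EMILIN proteins, 4 of 5 tested rose and *Emilin2* fell in each line. *Fbln7* had a log2 fold change of 3.86 ± 0.14 in NF1-MET (adjusted p = 8.39e-22), from 0.991 and 0.877 CPM to 14.4 and 13.3 CPM. *Fbln2* differed in its response, with an interaction of -0.49 ± 0.037 (adjusted p = 1.09e-09). *Emilin2* fell by 0.55 on the log2 scale in NF1-MET (adjusted p = 2.18e-10) and by 0.52 in NF1-MET;sgP53 (adjusted p = 9.92e-08).

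Of the microfibril-binding ADAMTS and ADAMTS-like proteins, 5 of 5 tested rose in NF1-MET and 4 of 5 in NF1-MET;sgP53. Among scaffold partners, 2 of 3 rose and 1 fell in NF1-MET, and 3 of 3 rose in NF1-MET;sgP53. Of 5 tested proteases able to degrade elastin, 3 rose and *Ctsl*, a lysosomal cysteine protease, fell in each line, by 0.45 (adjusted p = 8.89e-18) and 0.27 (adjusted p = 1.48e-07) on the log2 scale. All 3 genes of the elastin receptor complex rose in both lines, and of the 2 genes for processing and folding, 1 rose and 1 fell in each.

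**Figure D5:**
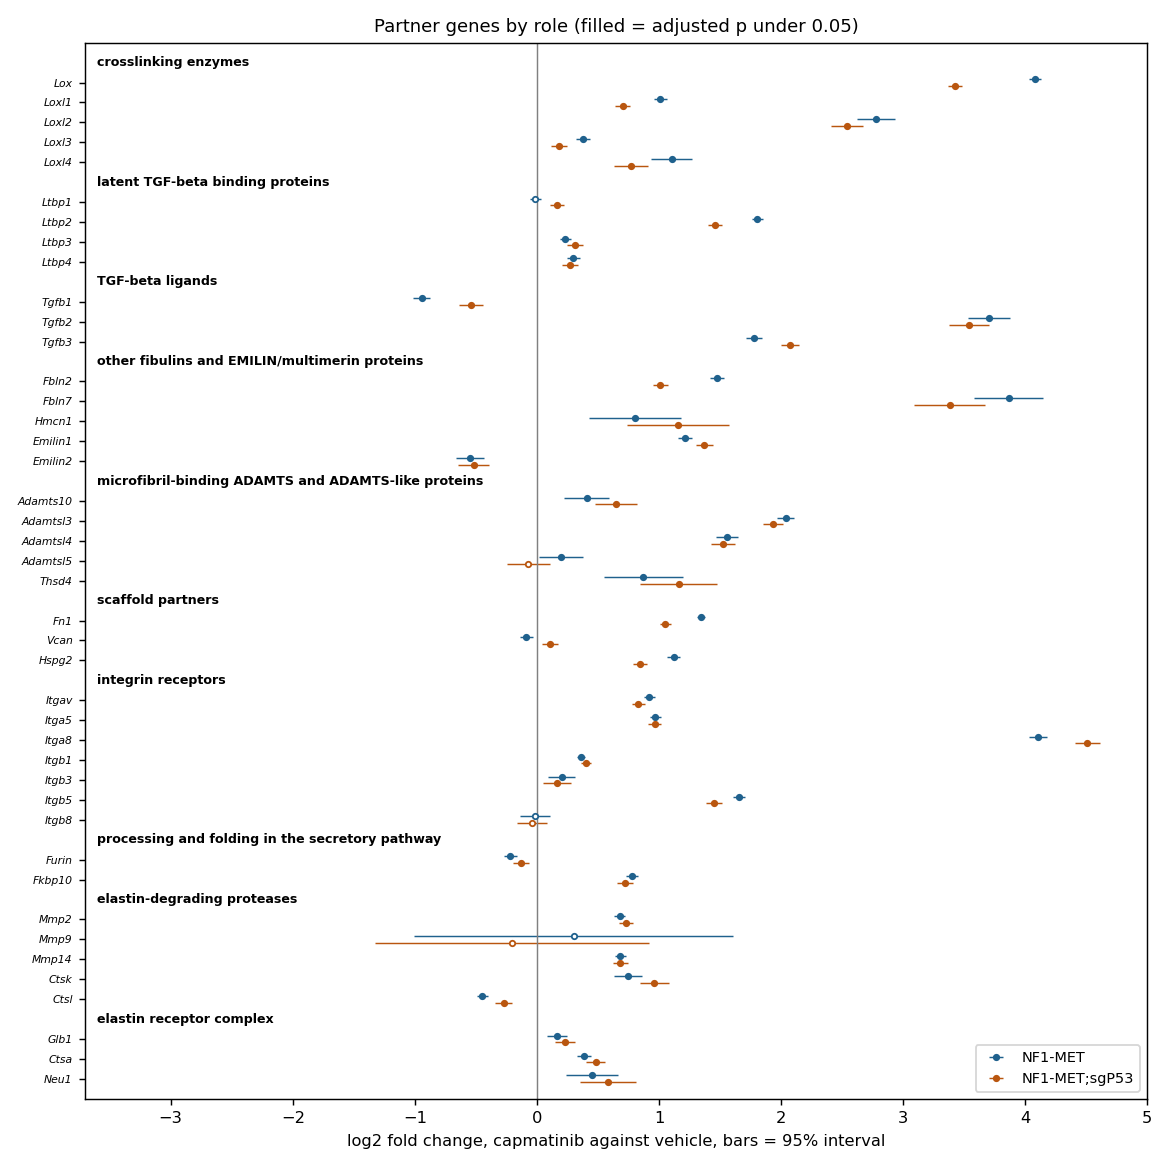
Log2 fold change of capmatinib against vehicle for the 42 tested partner genes, grouped by role, in NF1-MET (blue) and NF1-MET;sgP53 (orange), with bars for the 95% interval and filled dots for an adjusted p under 0.05. *Lox*, *Itga8*, *Tgfb2* and *Fbln7* lie above 3.3 in both lines, and *Tgfb1*, *Emilin2* and *Ctsl* lie below 0 in both.

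In the comparison of lines, 11 partners were higher and 11 lower in NF1-MET;sgP53 in vehicle, and 11 were higher and 9 lower with capmatinib, out of 42 tested. These are 26.2% and 26.2% of the partners in vehicle, beside 10.9% and 12.3% of all genes tested, and 26.2% and 21.4% with capmatinib, beside 5.94% and 6.34%. The interaction was called above 0 for 7 partners and below 0 for 9, which is 16.7% and 21.4% of them beside 3.85% and 5.86% of all genes. No test of the list against other genes was made.

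The genes whose pattern over the 8 libraries lay closest to each member were found among 9065 other genes, by the root mean square difference of mean-centred log2 CPM. For *Fbln5* these were *Col1a1* (0.0380) and *Ccn1* (0.0865), and for *Fbn1* *Irgm1* (0.0551) and *Arhgef25* (0.0626). *Fbn2* lay closest to *Zmat3* (0.0391) and *Phlda3* (0.0784), and *Mfap2* to *Fcgrt* (0.0575) and *Adcy1* (0.0723). *Mfap5* had no gene as near as the others did, with *Col11a1* at 0.141 and *Adamts5* at 0.213. The measure is not scaled to the size of a change or to counting noise. *Mfap5* had the largest capmatinib changes of the members that passed the filter, and 24 to 68 counts in vehicle libraries. *Efemp1* lay closest to *Pfkp* (0.0287) and *Pea15a* (0.0320), *Efemp2* to *Tln1* (0.0190) and *Me1* (0.0292), and *Fbln1* to *Smim3* (0.0757) and *Psmb5* (0.0823). The points share libraries and treatment, so these are descriptions of likeness.

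Markers of cell types were read beside these results. All 7 fibroblast and mesenchymal markers passed the filter, with a summed level of 8140 to 8235 CPM in NF1-MET vehicle and 31597 to 32092 CPM with capmatinib. For NF1-MET;sgP53 the sum was 9406 to 9543 CPM in vehicle and 31213 to 31275 CPM with capmatinib. Of 5 smooth muscle markers 4 passed, summing to 444 to 454 CPM in NF1-MET vehicle and 8418 to 8497 CPM with capmatinib, and to 1023 to 1026 against 9242 to 9331 CPM in NF1-MET;sgP53. *Des* was at 0 in 6 of 8 libraries. The fibroblast sum was carried mostly by the collagen genes *Col1a1*, at a mean of 2447 CPM in NF1-MET vehicle and 15390 CPM with capmatinib, and *Col1a2*, at 4587 and 15020 CPM. Not every marker rose: *Pdgfra* fell from a mean of 418 to 326 CPM in NF1-MET and from 448 to 359 CPM in NF1-MET;sgP53 (adjusted p = 7.96e-16 and 9.37e-10, edgeR quasi-likelihood test), and *Twist1* was not called in either line (adjusted p = 0.323 and 0.239). The part of these lists in the members' result was not tested. In bulk RNA, more cells of a type and more RNA per cell cannot be told apart.

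Schwann cell markers were mostly scarce: 6 of 9 passed the filter, and *Sox10* and *Ngfr* had at most 7 counts in any library. The list summed to 170 to 173 CPM in NF1-MET vehicle against 103 to 105 CPM with capmatinib, and to 120.5 to 120.8 against 92.9 to 98.0 CPM in NF1-MET;sgP53, so that it was lower with capmatinib in both lines. *Sox2* and *Egr2* carried most of the sum and went opposite ways: with capmatinib *Sox2* fell from a mean of 152 to 26.4 CPM in NF1-MET (adjusted p = 5.65e-33, edgeR quasi-likelihood test) and *Egr2* rose from 16.1 to 73.9 CPM (adjusted p = 4.94e-27). For NF1-MET;sgP53 the means were 99.5 and 24.4 CPM for *Sox2* and 18.9 and 67.4 CPM for *Egr2*. Their part in the members' result was not tested. None of the 4 endothelial or 3 epithelial markers passed the filter, with summed levels under 0.36 CPM in every library. Of 4 leukocyte markers 2 passed, with a sum of 1.77 to 2.12 CPM, and *Cd3e* was at 0 in all 8 libraries. The pair that passed went opposite ways with capmatinib at low counts. *Csf1r* rose from a mean of 0.209 to 0.808 CPM in NF1-MET and from 0.364 to 0.782 CPM in NF1-MET;sgP53 (adjusted p = 0.000306 and 0.0168, edgeR quasi-likelihood test). *Cd68* fell from 1.73 to 0.913 CPM and from 1.49 to 0.965 CPM (adjusted p = 0.00277 and 0.0391). Their part in the members' result was not tested either.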

How the data were processed

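RNA-seq was analysed for the 8 libraries. The deposited values are raw counts per gene as the authors took them from STAR: poly(A) libraries were sequenced in paired ends, trimmed and mapped to mm10. The submitters' processing notes name bcl2fastq 1.9.0, Trim Galore 0.4.2, FastQC 0.11.7 and STAR 2.5.2b. The annotation release and strand setting are not given in the sources used here. Totals were 30116810 to 42781371 counts per library.

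A gene was kept when 2 or more of the 8 libraries held 10 counts or more (14497 genes) and 2 or more libraries of the comparison held any. TMM factors were computed within each comparison and for the 8 libraries together where CPM are given. The test was the quasi-likelihood F-test of edgeR 4.0.16 in R 4.3.3, in the form used before its bias adjustment. P-values were adjusted by Benjamini and Hochberg across every gene of a comparison, and calls were made at 0.05. The absolute log2 fold change divided by the square root of F gave the SE. Biological coefficients of variation were 2.34% to 4.28%, and the median squared difference between replicates was 1.54 to 1.77 times sampling noise, so no pair was 1 library deposited again. Per-length levels used the union of GENCODE M21 exons, in which 99.6% of the 50600 identifiers were found.

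All 10 members are given in every comparison. Partners are named where they were the 3 largest called rises or falls of a capmatinib comparison or of the interaction and averaged 10 CPM or more in their highest group, and 2 nearest genes are named for each member. Likeness used log2 CPM with a prior count of 2. Genes at 0, markers and *Gm42418* were named from the fixed lists or as checks, and *Loxl2* was named after its values were seen. The members, the partner and marker lists, the tests and most alternatives were chosen with earlier results of these data known. The motifs were chosen later. Of the cell type markers, 2 are not reported here and stand in no sum. Scripts were tested on simulated data. Alternatives were DESeq2 1.42.0 size factors, library totals, DESeq2's Wald test, no low-count filter, a stricter one, a block for the replicate number, all 8 libraries in 1 model, removal of *Gm42418*, each library left out, and edgeR's bias-adjusted test, which was added after seeing the data.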

Additional observations from a re-analysis of the deposited data

Results flagged for a closer look

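By the interaction test over 8 libraries, the response to capmatinib differed between the lines for 5 of the 8 tested members. All 5 were called below 0, as were 5.86% of all genes tested. The response also differed for the partners with the 3 largest called interactions on each side of 0, among those averaging 10 CPM or more in their highest group. Among the members the log2 interaction, negative where the rise was smaller in NF1-MET;sgP53, was -0.33 for *Fbn1*, -0.85 for *Mfap5*, -0.49 for *Fbln5*, -0.29 for *Efemp1* and -0.18 for *Efemp2*. Among those partners it was 0.39 for *Itga8*, 0.38 for *Tgfb1*, 0.28 for *Tgfb3*, -0.37 for *Ltbp2*, -0.49 for *Fbln2* and -0.67 for *Lox*. With library totals as the scaling, *Fbln5* was the only member called in the interaction, and *Tgfb3* and *Ltbp2* were not called. The *Mfap5* value ran from -1.12 to -0.64 with a library left out. With 2 libraries a group, no search for outlying libraries within a group was made.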

How the results depend on the processing

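The analysis gave 204 counts, 544 values of members and 252 values of partners under the alternatives. Of these 192 counts, 502 member values and 250 partner values kept their direction and their side of the threshold (counts: within 1.5 times). The cause of the changes below was not tested. The replicate numbers do not pair the samples: deviations of same-numbered libraries correlated between groups at -0.0536 to 0.102. With the replicate number as a block, genes called were 10141 and 9866 for capmatinib in NF1-MET and NF1-MET;sgP53, 3994 and 1777 for the lines in vehicle and capmatinib, and 1524 for the interaction, and no count of members changed.

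Library totals moved the median over all genes (log2) to -0.184 and -0.118 for capmatinib in NF1-MET and NF1-MET;sgP53, to 0.114 for the lines in capmatinib, to 0.0596 in vehicle and to 0.0522 in the interaction. The share of calls that were higher went from 50.5% to 35.5%, from 50.6% to 39.8%, from 48.4% to 80.6%, from 47.1% to 63.3% and from 39.7% to 61% in the same order. The interaction split was 58.8% without *Gm42418*. With library totals, 1 member was called lower for capmatinib in NF1-MET (*Fbn2*), 0 were called higher and 1 lower for the lines in capmatinib, and 1 lower in the interaction, while 2023 genes were called for the lines in vehicle, 666 in capmatinib and 315 in the interaction, beside 3355, 1778 and 1407 with TMM factors. DESeq2's Wald test called 1915, 848 and 827 genes there. Without a low-count filter, 2 members were called higher for the lines in capmatinib.

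With a library left out, the members called higher for the lines in capmatinib ranged from 1 to 3, in vehicle from 4 to 5, and those called lower in the interaction from 4 to 5. Reversals of direction were of values that were not called, apart from *Fbln5* for the lines in capmatinib (0.011 with library totals). *Fbn2* for capmatinib in NF1-MET was 0.0021 with the stricter filter and 0.0079 with all 8 libraries in 1 model, and -0.063 to 0.041 with a library left out. In NF1-MET;sgP53 it was -0.00018 with DESeq2's size factors, -0.12 with library totals, -9.76e-05 by DESeq2, -0.011 without the filter and -0.035 to 0.039 with a library left out. Its interaction was 0.012 with DESeq2's size factors and by DESeq2's test, 0.077 with library totals, 0.024 without the filter, 0.0046 with the stricter filter, 0.035 without *Gm42418*, 0.00062 by the bias-adjusted test, and -0.051 to 0.073 with a library left out. For the lines in capmatinib, library totals gave *Mfap2* 0.060 and *Fbln1* 0.10, and leaving out a library gave *Fbln1* -0.27 to 0.21 and *Fbn1* -0.0045 to 0.093. Leaving out a library also gave *Mfap2* -0.14 to 0.22 for the lines in vehicle and -0.30 to 0.061 in the interaction, and *Fbln1* -0.42 to 0.051 in the interaction. Counts of 20 to 33 limit *Fbln1*, and those of *Mfap2* and *Mfap5* in vehicle (24 to 84) limit their line differences.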
